A study of Mus musculus with 2 samples.

Results

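Leukocytes and platelets carry a set of effector proteins that other tissues largely lack: surface antigens, receptor-proximal signalling molecules, actin regulators, granule enzymes, the phagocyte oxidase and the platelet glycoproteins. The expression of 39 genes for such proteins was examined in sorted Flk1+Tie2+ cells from mouse embryoid bodies. They were chosen by name, as proteins restricted to leukocytes, mast cells or platelets, leaving out transcription factors and integrins. Earlier results of these data were known when the genes were chosen, so the set is not independent of the values. All probe sets whose annotated gene symbol was one of these names were taken, which gave 68 probe sets for all 39 genes among 34945 probe sets for 18193 genes. Each condition was 1 sample on 1 Affymetrix array. The dox sample came from A2lox.Mesp1 embryonic stem cells of the 129/Ola strain, whose Mesp1 transgene is turned on by doxycycline (dox). They were given 250 ng/mL of dox on day 2 of differentiation, and exposure ended on day 4. The no dox sample came from the same line without dox, so both samples carried the transgene. Embryoid bodies of both samples were trypsinized on day 5, stained for Flk1 (encoded by Kdr) and Tie2 (encoded by Tek), and sorted by flow cytometry. A sample of cells that received dox without carrying the transgene was not analysed here, so an action of dox itself and one of Mesp1 cannot be told apart.

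Blood cells of the embryo arise from mesoderm by way of Flk1+ precursors, and part of the endothelium that carries Tie2 is hemogenic, meaning that it gives rise to blood. Cells that enter this path begin to transcribe blood genes step by step, and Ptprc, which encodes the pan-leukocyte antigen CD45, marks cells already committed to blood. In mature cells many of the proteins studied act in a single chain: an adaptor with an immunoreceptor tyrosine-based activation motif (ITAM) recruits the kinase Syk, which acts through Lcp2 and Vav1 on the actin skeleton, on integrins through Fermt3, and on granule release and oxidant production. Mesp1 is a basic helix-loop-helix factor switched on in nascent mesoderm, best known from the precursors of the heart and vessels.

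The signal of Mesp1 was 10977 with dox and 2433 without dox. Whether its probe set reads the transgene, the endogenous transcript or both was not tested. The genes of the sort were bright on both arrays, with Kdr at 10733 with dox and 10140 without dox, and Tek at 9277 with dox and 8799 without dox. Of the other endothelial genes, Cdh5 (VE-cadherin) had 7948 with dox and 8244 without dox, and Pecam1 (CD31) 497 with dox and 510 without dox. The median signal over all probe sets was 127 with dox and 112 without dox, in the arbitrary linear units of the deposited table, whose lowest value is 1. Differences are given as dox minus no dox of log2(signal + 16), and each fold comes from that difference; the added 16 understates the change of dim genes. With 1 array per condition, no difference has a replicate check, and none carries a p-value.

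Of the 39 effector genes 20 were dim in these cells, and of the others 14 had a lower signal with dox and 5 a higher one (15 and 4 with quantile normalization or equal array medians). Among all genes that were not dim, 5236 had a lower signal with dox and 6523 a higher one, before any rescaling. Each gene was read by its brightest probe set. The signal filter asked that the higher of its 2 values be at or above the median of that array, and it was passed by 19 of the 39 effector genes (48.7%), against 64.6% of all 18193 genes. Of these 19 genes, 5 were 2-fold or more lower with dox, where 2.07% of all 11760 genes past the filter were. They were Fermt3, Alox5ap, Mpo, Laptm5 and Inpp5d. A single gene, Plek, was higher by 2-fold or more, against 5.71% of all genes, and 13 lay within 2-fold. The median log2 difference was -0.24 over the 19 genes and 0.05 over all genes past the filter. With quantile normalization these medians were -0.40 and -0.03, and with equal array medians -0.40 and -0.13. Fewer cells of a type and less RNA per cell cannot be told apart in such samples.

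Some of the 19 genes passed the filter through 1 array only, and a gene that does so leans by construction towards that array. Cd37, Fermt3 and Pf4 passed through the no dox array, and Rac2 and Plek through the dox array. A filter at the 75th percentile left 7 effector genes with a median of -1.23, but 4 of the 7 (Fermt3, Alox5ap, Mpo and Inpp5d) reached it on the no dox array only, so it too leans towards the lower side by construction. Among the 14 genes with both signals at or above the medians, 4 were lower by 2-fold or more and 0 were higher by that much, with a background of 1.54% and 3.82% of all genes. Among all 39 genes without any filter the counts were again 5 lower and 1 higher, or 12.8% and 2.56%, with a background of 2.04% and 4.77%. The scaling between arrays matters for the background. When the arrays were brought to equal medians, the median difference of all genes moved by -0.18, that of the effector genes by -0.16, and the share of higher genes among all those past 2-fold was 56.8% in place of 73.4% (64.7% after quantile normalization). The 5 lower genes and Plek kept their calls under both scalings.

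**Figure D1:**
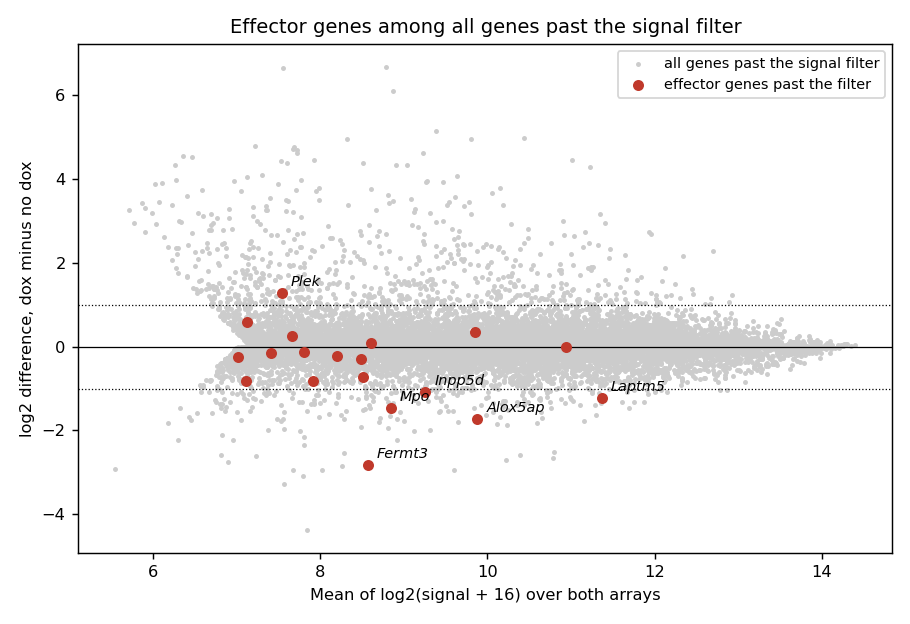
Log2 difference (dox minus no dox) against the mean of log2(signal + 16) over both arrays, for all 11760 genes past the signal filter (grey) and the 19 effector genes among them (red); dotted lines mark 2-fold. Fermt3, Alox5ap, Mpo, Laptm5 and Inpp5d lie under the lower line and Plek lies above the upper one.

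Laptm5, a lysosomal membrane protein of blood cells that limits antigen receptor levels, was measured by 5 probe sets, and all 5 were lower with dox. The brightest had a signal of 1715 with dox and 4039 without dox, and the next had 769 with dox and 2254 without dox. The others had 643 with dox and 2323 without dox, 230 with dox and 632 without dox, and 155 with dox and 292 without dox. The log2 differences ran from -1.83 to -0.85, with a mean of -1.37 ± 0.36 (SD over 5 probe sets). That SD describes probe sets, not cultures. It was close to the SD between probe sets of 1 gene over all genes with several past the filter, 0.38 log2 units (5155 genes). The latter was 0.26 for probe sets with a mean signal of 500 or more and 0.48 for those under 500. Laptm5 had probe sets of both kinds. All of its signals lay above the array medians, so the gene was lower with dox without becoming dim.

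Alox5ap encodes FLAP, the protein that hands arachidonic acid to 5-lipoxygenase for leukotriene synthesis. Its only probe set had a signal of 501 with dox and 1706 without dox, 3.33-fold lower. Only 43 of the 11760 genes past the filter had a more negative difference. Alox5, the lipoxygenase that FLAP serves, was dim on both arrays, at 68.7 with dox and 70.5 without dox. Of the other genes of this pathway, 3 of 7 passed the filter, with none lower and 1 higher by at least 2-fold. Lta4h, which makes leukotriene B4 and is widely expressed, had 6749 with dox and 6872 without dox, and its 3 probe sets ran from -0.86 to 0.21. Pla2g4a, the phospholipase that releases arachidonic acid, had 179 with dox and 66.3 without dox, 2.37-fold higher. Ptgs2, a cyclooxygenase of the prostaglandin branch, had 156 with dox and 113 without dox (0.41), and its other probe set differed by 2.50. Among the pathway genes past the filter, none besides Alox5ap was 2-fold lower.

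Fermt3, which encodes kindlin-3, the protein that activates integrins in blood cells, was bright on the no dox array only. Its brightest probe set had a signal of 126 with dox and 1000.3 without dox, a log2 difference of -2.84. Its further probe sets past the filter had 45.7 with dox and 286 without dox, and 40.4 with dox and 165 without dox. The mean over the 3 was -2.27 log2 units ± 0.58 (SD over 3 probe sets). The fourth probe set was dim, at 21.7 with dox and 13.7 without dox, and had a log2 difference of 0.35. On the dox array every probe set of Fermt3 lay below the array median, so the size of the difference depends on the pseudocount and is given only as a description. The 3 agreeing probe sets are all of kinds that can match several transcripts (names ending in _s_at or _a_at), so without such probe sets Fermt3 gave no value.

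Mpo, the peroxidase of neutrophil and monocyte granules, was measured by 1 probe set, with a signal of 261 with dox and 749 without dox. This was 2.76-fold lower. Inpp5d encodes SHIP1, the lipid phosphatase that opposes phosphoinositide 3-kinase in blood cells. Its brightest probe set had 404 with dox and 875 without dox, 2.12-fold lower, and its dimmer one had 67.2 with dox and 86.5 without dox, a log2 difference of -0.30. Inpp5d was therefore the closest of the 5 to the 2-fold line, with a dim probe set that differed by less. Both of its probe sets end in _a_at, so it gave no value without that kind.

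**Figure D2:**
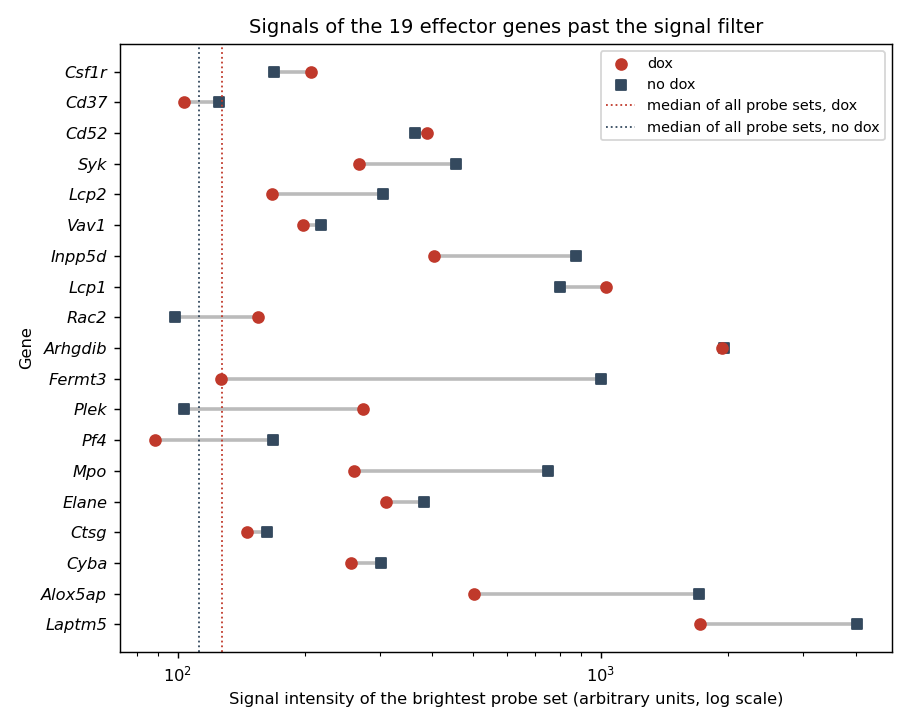
Signal of the brightest probe set, on a log axis in arbitrary units, with dox (red circles) and without dox (dark squares) for the 19 effector genes past the signal filter; dotted lines are the array medians of 127 with dox and 112 without dox. The widest gaps are those of Fermt3, Alox5ap and Mpo, with the no dox signal on the right, while Plek has the dox signal on the right.

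The stretch in front of the gene start is shown, from the RefSeq promoter table, for Fermt3, Mpo, Laptm5 and Inpp5d, which were 2-fold or more lower with dox. Alox5ap, the other lower gene, had no promoter entry. ETS factors, which bind a GGAA core, are known regulators of many leukocyte genes, and their part in these differences was not tested. Each line gives the 250 bases before the start in assembly GRCm38.p6, read in the direction of the gene, with every GGAA or its reverse complement TTCC in capitals. Fermt3 lies on chr19:7019470-7019719 (minus strand), Mpo on chr11:87793534-87793783, Laptm5 on chr4:130913066-130913315 and Inpp5d on chr1:87620062-87620311 (plus strand for these).
Fermt3: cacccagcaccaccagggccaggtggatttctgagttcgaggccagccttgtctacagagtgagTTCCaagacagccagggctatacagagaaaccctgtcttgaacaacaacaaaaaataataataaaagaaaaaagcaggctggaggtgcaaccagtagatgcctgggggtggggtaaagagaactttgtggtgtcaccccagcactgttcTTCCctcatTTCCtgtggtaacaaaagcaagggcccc
Mpo: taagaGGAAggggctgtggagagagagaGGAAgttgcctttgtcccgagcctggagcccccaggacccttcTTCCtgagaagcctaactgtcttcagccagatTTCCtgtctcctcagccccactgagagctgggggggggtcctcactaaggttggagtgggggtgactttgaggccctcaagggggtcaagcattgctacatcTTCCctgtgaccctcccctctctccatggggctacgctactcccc
Laptm5: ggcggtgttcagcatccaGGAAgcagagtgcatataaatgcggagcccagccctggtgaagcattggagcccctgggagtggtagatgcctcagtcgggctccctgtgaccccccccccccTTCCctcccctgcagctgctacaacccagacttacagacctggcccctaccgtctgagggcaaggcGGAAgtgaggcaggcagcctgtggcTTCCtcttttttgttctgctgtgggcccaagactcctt
Inpp5d: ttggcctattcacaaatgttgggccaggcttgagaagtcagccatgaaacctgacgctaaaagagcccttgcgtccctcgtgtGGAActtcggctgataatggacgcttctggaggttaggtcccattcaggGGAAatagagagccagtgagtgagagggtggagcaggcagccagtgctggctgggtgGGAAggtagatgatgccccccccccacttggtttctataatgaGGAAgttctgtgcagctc
All 4 stretches held the core, 3 times in Fermt3, 5 times in Mpo and 4 times each in Laptm5 and Inpp5d. The core is so short that 93.4% of 27025 promoters of the same length held it too, as did 31 of the 33 effector genes with an entry. A longer form, GGAAGT on either strand, was searched after the sequences had been seen and contains the core. It stood in Mpo, Laptm5 and Inpp5d, in 16 of the 33 effector genes (48.5%) and in 19.9% of all promoters. Among the 16 were genes that were dim on both arrays, such as Ptprc with 2 matches. The RUNX core TGTGGT was in 8 of 33 (24.2%) against 14.2% of all promoters, and 2 times in Fermt3, where one copy directly follows the last TTCC. The GATA core GATAA was in 9 of 33 (27.3%) against 23.0%, and the E-box CANNTG in 26 of 33 (78.8%) against 66.1%. All motifs were searched on both strands, and a match describes letters, not a bound site.

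In the signalling chain behind ITAM receptors, the genes that passed the filter all had lower signals with dox, Inpp5d past 2-fold and the other 3 within it. Syk, the kinase that binds phosphorylated ITAMs, had 268 with dox and 456 without dox (log2 difference -0.73), and 153 with dox and 228 without dox by its second probe set. Its dim probe sets had -1.12 and -0.06, so all 4 had the same sign. Lcp2 (SLP-76, a scaffold downstream of Syk) had 167 with dox and 305 without dox (-0.81), although its dim probe set gave 0.13. Vav1, a signalling protein of blood cells that is phosphorylated after receptor engagement, had 198 with dox and 218 without dox (-0.13). Its second probe set was below both medians, at 9.31 with dox and 84.0 without dox, and differed by -1.98, so the probe sets of Vav1 do not settle its size. The ITAM adaptors themselves were dim: Fcer1g, the Fc receptor gamma chain, had 41.2 with dox and 34.0 without dox, and Tyrobp (DAP12) had 19.04 with dox and 46.65 without dox. Btk, a kinase of B cells and myeloid cells, was dim as well, at 44.9 with dox and 41.2 without dox.

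Partners of this chain that are not in the set of 39 were measured for comparison. Of 14 with a probe set, 9 passed the filter, of which 6 had a lower signal with dox and 3 a higher one, with a median of -0.17. By 2-fold or more, 1 was lower and none was higher. The gene past 2-fold was Grap2 (GADS), the adaptor that ties SLP-76 to its receptor complex, with 142 with dox and 465 without dox, 3.05-fold lower. Its other probe set differed by -0.19. Pik3cd, a leukocyte phosphoinositide 3-kinase subunit, had 5158 with dox and 9239 without dox (-0.84), but its 6 probe sets ran from -0.84 to 0.91. Plcg2, a phospholipase activated by Syk, had 1065 with dox and 1893 without dox (-0.82).

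Among the 7 genes of the actin and integrin machinery, no gene but Fermt3 differed 2-fold. Arhgdib, a cytoplasmic protein abundant in blood cells, had 1933 with dox and 1954 without dox. Lcp1 (L-plastin, an actin bundler) had 1029 with dox and 801 without dox (log2 difference 0.35), and 0.20 by its other probe set. Rac2, the blood-cell Rac GTPase, had 155 with dox and 98.6 without dox (0.58), passing the filter on the dox array only. Coro1a (coronin-1A), Was (the Wiskott-Aldrich protein) and Hcls1 (a cortactin relative of blood cells) were dim on both arrays. Was had 109 with dox and 101 without dox, while Hcls1 had 2.55 with dox and the floor value of 1 without dox. The probe sets of Coro1a ran from -1.46 to 0.49, all dim.

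Relatives of these proteins in other tissues, and further actin and integrin proteins, were set beside them without a test. Of 13 measured paralogues, such as Coro1b for Coro1a and Wasl for Was, 11 passed the filter and all 11 lay within 2-fold, with a median of 0.20. The farthest from 0 were Inppl1 (SHIP2, the relative of Inpp5d), with 2913 with dox and 1617 without dox (0.84), Vav2 (0.77) and Vav3 (-0.44). Inpp5d and Inppl1 thus lay on opposite sides of 0. Of 14 actin and integrin partners, 11 passed and all lay within 2-fold, with a median of -0.04. Fermt2 (kindlin-2), the widely expressed kindlin, had 7439 with dox and 5665 without dox (0.39), against -2.84 for Fermt3. Fyb (-0.63), an adaptor that binds SLP-76, and Wipf1 (-0.50), a partner of the Wiskott-Aldrich protein, were the others of that list farthest from 0. The other probe set of Fyb gave 0.51.

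**Figure D3:**
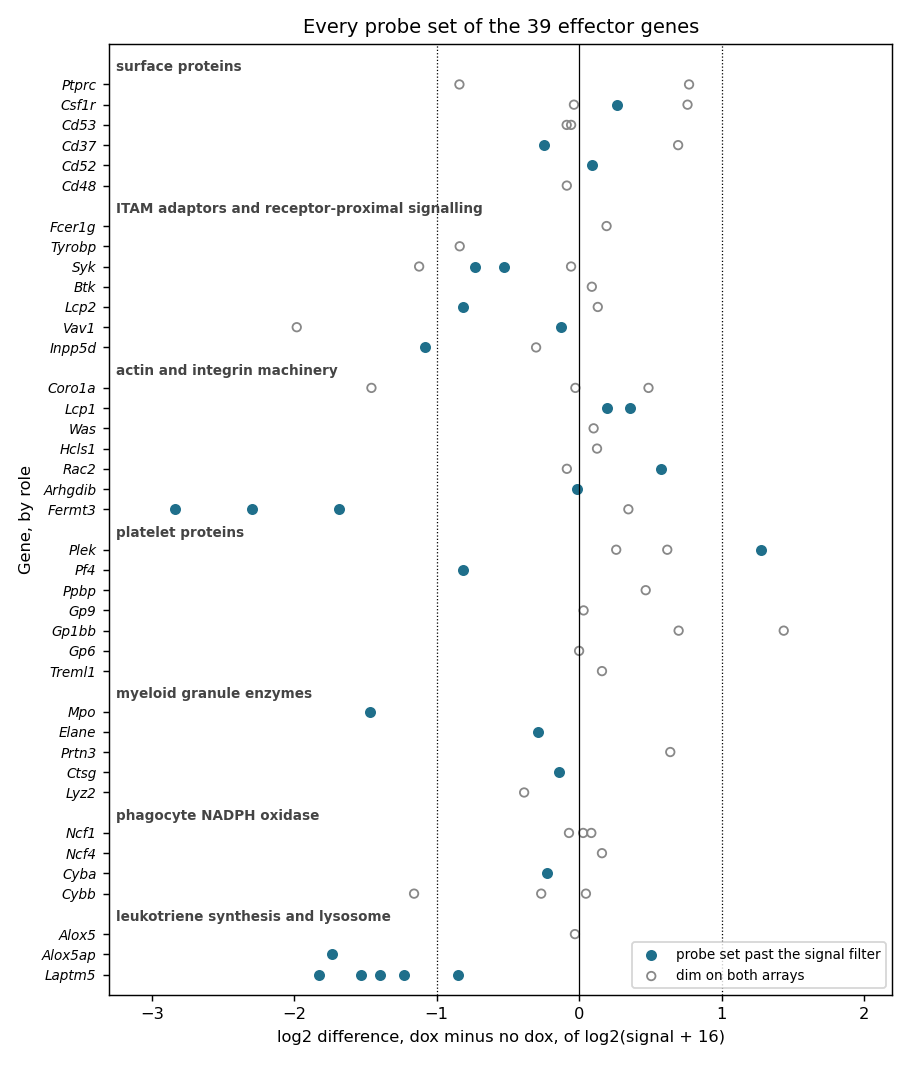
Log2 difference (dox minus no dox) of each of the 68 probe sets of the 39 effector genes, grouped by role; filled points passed the signal filter, open points were dim on both arrays, and dotted lines mark 2-fold. All 5 probe sets of Laptm5 and the 3 filled points of Fermt3 lie on the lower side, whereas the platelet genes other than Pf4 lie at or above 0.

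Of the 7 platelet genes only 2 passed the filter, and they had opposite signs. Plek (pleckstrin, the main protein kinase C substrate of platelets, also found in leukocytes) had 274 with dox and 103 without dox by its brightest probe set, a log2 difference of 1.28 against a no dox signal below the array median. Its dim probe sets had 69.0 with dox and 55.0 without dox, and 43.7 with dox and 22.9 without dox, so all 3 had the same sign. Plek passed the filter through the dox array alone and did not count as higher when both arrays or the 75th percentile had to be reached. Pf4 (platelet factor 4, a chemokine of alpha granules) had 88.4 with dox and 168 without dox (-0.81). The remaining 5 genes were dim. Gp1bb, a subunit of the von Willebrand factor receptor, had 121 with dox and 68.6 without dox, just below the filter. Its partner Gp9 had 97.5 with dox and 95.1 without dox, and Treml1, a receptor of alpha granules, had 113 with dox and 99.3 without dox. Ppbp, the precursor of another platelet chemokine, had 35.8 with dox and 21.4 without dox, and Gp6, the platelet collagen receptor, was at the floor of 1 on both arrays.

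Platelet and megakaryocyte partners included bright genes, several of which endothelium shares. Of 11 with a probe set, 5 passed the filter, and with dox 2 of them were higher by at least 2-fold and none lower by that much, with a median of 0.47. Clec1b (CLEC-2, a Syk-coupled platelet receptor) had 6115 with dox and 2026 without dox, a log2 difference of 1.59. Vwf, the adhesive protein of platelets and endothelium, had 859 with dox and 295 without dox, 2.82-fold higher. Mmrn1 (multimerin-1, of platelets and endothelium) had 875 with dox and 628 without dox (0.47).

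Of the granule enzymes, only Mpo differed 2-fold. Elane, neutrophil elastase, had 310 with dox and 382 without dox (-0.29), and Ctsg (cathepsin G) had 146 with dox and 163 without dox (-0.14). Prtn3 (proteinase 3), which neighbours Elane in the genome and shares its granule, was dim and had 97.1 with dox and 56.6 without dox (0.64). Lyz2, the lysozyme of macrophages and neutrophils, was dim at 42.2 with dox and 60.1 without dox. The serine proteases that share granules with myeloperoxidase were therefore either dim or within 2-fold on these arrays.

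The phagocyte NADPH oxidase was represented by a single gene past the filter. Cyba (p22phox), the membrane subunit that also serves oxidases of other cells, had 257 with dox and 303 without dox (-0.23). Its catalytic partner Cybb (gp91phox) had 41.0 with dox and 52.5 without dox by its brightest probe set and was dim by all 3. Of the cytosolic subunits, Ncf1 (p47phox) had 85.5 with dox and 90.6 without dox, and Ncf4 (p40phox) had 47.0 with dox and 40.4 without dox. Of 4 partners with a probe set, 2 passed the filter, and neither differed 2-fold. Nox4, the oxidase of endothelium, had 85.8 with dox and 123 without dox (-0.45), passing the filter on the no dox array only. Its other probe set differed by 0.32. The GTPase Rac1 had 7190 with dox and 9209 without dox (-0.36), and its 3 probe sets ran from -0.36 to 0.04.

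Among the surface proteins none differed 2-fold, and the gene of the defining leukocyte antigen was dim on both arrays. Ptprc (CD45) had 1.80 with dox and 15.9 without dox by one probe set, and 13.0 with dox and the floor of 1 without dox by the other. Both lay far below the array medians, and their signs disagreed. Csf1r, the macrophage colony-stimulating factor receptor, had 207 with dox and 169 without dox (0.26) by a probe set ending in _s_at. Its dim probe sets gave 0.76 and -0.04. Cd52, a small glycoprotein of lymphocytes, had 388 with dox and 364 without dox (0.09, or -0.09 with equal array medians). Cd37, a tetraspanin of B cells, had 104 with dox and 125 without dox (-0.24), and its dim probe set gave 0.70. Cd53, another tetraspanin of leukocytes, had 73.1 with dox and 78.7 without dox, and Cd48, a ligand for a receptor of natural killer cells, 22.59 with dox and 24.97 without dox.

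Markers of the mature cells in which these proteins act were mostly dim on both arrays. None of 7 neutrophil markers passed the filter, and their summed signal was 322 with dox and 301 without dox. Of 10 macrophage markers 2 passed, Mrc1 (4149 with dox and 2314 without dox), which some endothelium also makes, and Adgre1 (426 with dox and 508 without dox). The macrophage sum was 5054 with dox and 3284 without dox. Of 9 lymphocyte markers 2 passed, Cd8a (1004 with dox and 1222 without dox) and Il7r (142 with dox and 170 without dox), the sum was 1432 with dox and 1664 without dox, and Rag1 was at the floor of 1 on both arrays. Of 10 mast cell and basophil markers only Kit passed, the stem cell factor receptor that blood progenitors also carry. Kit had 1317 with dox and 3242 without dox, 2.44-fold lower, and its 2 probe sets differed by -1.29 and -1.27. The mast cell sum, which Kit dominates, was 1765 with dox and 3691 without dox. The name of the set thus describes where these proteins are known to act. The listed neutrophil markers, the listed mast cell markers other than Kit, and Ptprc were dim in this sort. The granule enzyme genes Mpo, Elane and Ctsg were not, and passed the filter on both arrays.

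Genes of other blood lineages and of other tissues differed between the same 2 samples. Of 9 erythroid markers, 6 passed the filter, of which 5 had a lower signal with dox and 1 a higher one, with a median of -0.66. By 2-fold or more, 2 were lower and none was higher. The summed signal of the 9 was 3727 with dox and 7920 without dox. Hbb-bh1, an embryonic globin, had 535 with dox and 3282 without dox. Of the alpha-type globins, Hba-x had 62.0 with dox and 140 without dox, and Hba-a1 had 1559 with dox and 2613 without dox, and none of the 9 markers was at the floor. Of 17 regulators of blood genes, 13 passed, of which 3 were lower and 1 higher by at least 2-fold, with a median of -0.60. Myb, a factor of definitive progenitors, had 98.6 with dox and 809 without dox, and Gfi1b, a repressor of red cell and platelet precursors, had 67.3 with dox and 314 without dox. The third lower gene was Nfe2, a factor of megakaryocytes, chosen with its value known, with 154 with dox and 360 without dox. Cebpb, the higher one, had 309 with dox and 69.3 without dox, with -0.20 by its other probe set. Spi1 (PU.1), the ETS factor of myeloid genes, had 177 with dox and 174 without dox, Runx1 had 188 with dox and 161 without dox, and Gata1 had 153 with dox and 273 without dox. The probe sets of Runx1 disagreed, from -1.64 to 0.25 over 6.

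Signals of mesenchymal and cardiac genes were higher with dox in the same sort. All 10 mesenchyme markers passed the filter and 9 were 2-fold or more higher, with a summed signal of 45700.4 with dox and 5397 without dox. The farthest from 0 were Tagln (5.14), Col5a2 (4.96) and Lum (4.61). Of 8 cardiomyocyte markers 6 passed, all 6 were 2-fold or more higher, and the sum was 7249 with dox and 1804 without dox. Myl4 (3.88), Tnnt2 (3.43) and Myh7 (2.70) were the farthest, though another probe set differed by 0.33 for Myl4 and by 0.55 for Tnnt2. No marker of either list was at the floor on either array. Without dox, however, Tagln (96.7), Lum (26.8), Myl4 (31.0) and Myh7 (18.8) lay below the array median of 112. The size of their differences is therefore uncertain. Col5a2 (144) and Tnnt2 (122) lay above that median. The 10 endothelial markers had a sum of 46100 with dox and 49661 without dox, a median of -0.06, and 1 member 2-fold lower (Cldn5, -1.40) and 1 higher (Robo4, 1.41), with Esam next at -0.35. The 9 housekeeping genes all lay within 2-fold, with a median of 0.02, and the farthest were Gusb (0.61), Polr2a (0.38) and Hprt (0.20). The part of any of these cell types in the differences of the effector genes was not tested.

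**Figure D4:**
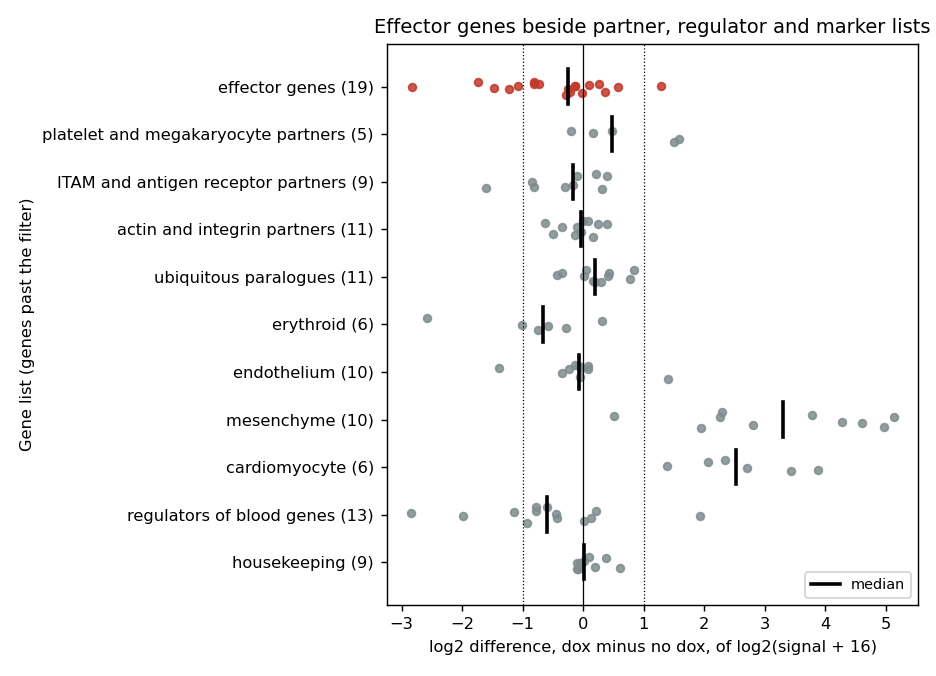
Log2 difference (dox minus no dox) of single genes past the signal filter in the effector set and in each other list with at least 5 such genes; black bars are medians and numbers in brackets count genes. The effector genes spread from -2.84 to 1.28 around a median of -0.24; the medians of the blood regulators and the erythroid genes were -0.60 and -0.66, and that of the mesenchyme genes was 3.30.

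The signs of the 20 dim effector genes gave no common direction, and the majority sign depended on the scaling. Their signals lay between 1 and 121, 8 had lower and 11 higher signals with dox (12 and 8 with equal array medians, 11 and 8 with quantile normalization), Gp6 was equal, and their median log2 difference was 0.06, against 0.03 for all 6433 dim genes. By probe set rather than by gene, 27 of the 68 passed the filter, 10 were 2-fold or more lower and 1 higher, with a background of 2.13% lower and 5.61% higher among all probe sets past the filter. The 10 belonged to the same 5 genes, and 7 of them to Laptm5 and Fermt3, the genes with the most probe sets past the filter.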

How the data were processed

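Gene expression was measured in 2 samples, 1 per condition, each on 1 Affymetrix 3' array, from biotin-labelled RNA amplified from 100 ng of total RNA, per the labels' protocols. For 45037 probe sets the authors deposited an intensity on a linear scale, with a floor of 1. Their summarisation and scaling method was not given in the sources used here. Probe-level values and detection calls were not used here, so dim signals could not be told from background, and the number of arrays limits the precision.

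Probe sets were named by the platform annotation: 34945 had 1 symbol, 932 several and 9160 none. The Entrez number of 34741 was found in the RefSeq table of GRCm38.p6, which changed no symbol. Of the promoter entries, 33 of 39 genes matched, and for several starts the most upstream was taken. Some listed comparison genes had no named probe set here and are not reported.

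Values were computed with Python 3.11.15, pandas 2.3.3 and numpy 2.4.6 on the log2(signal + 16) scale, a setting of this work and not of the deposited values, and the procedure was tested on simulated data. No test between conditions was possible. The 39 genes, the other lists, the 2-fold size and the alternatives were chosen with earlier results of these data known. All 39 genes are accounted for, and of each other list the 3 genes farthest from 0 past the filter are named, besides Spi1, Gata1, Runx1, Kdr, Tek, Pecam1, Cdh5 and Mesp1. Coro1b, Wasl, Rag1 and Nfe2 fall outside that rule and were chosen with their values known. The alternatives were pseudocounts of 1 and 64, no filter, a filter on both arrays or at the 75th percentile, quantile or median scaling, the mean of a gene's probe sets, and removal of probe sets whose names end in _x_at, _s_at or _a_at, which can match several transcripts.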

Additional observations from a re-analysis of the deposited data

How the results depend on the processing

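The number of effector genes 2-fold or more lower with dox was 5 under 7 of the 9 alternatives, 4 with a filter on both arrays and 3 without probe sets ending in _x_at, _s_at or _a_at. Alox5ap, Laptm5 and Mpo were among the lower genes under every alternative. Fermt3 gave no value with the filter on both arrays, and neither Fermt3 nor Inpp5d gave one without those probe sets, because their remaining probe sets were dim or none. The number 2-fold or more higher was 0 instead of 1 with a filter on both arrays or at the 75th percentile, which Plek does not pass. The median log2 difference was -1.23 with the filter at the 75th percentile, over the 7 genes left, 4 of which reach that level on the no dox array only, and between -0.40 and -0.07 elsewhere. Of 150 values of single genes under the alternatives, 149 moved by less than the SD between probe sets, 1 moved further (Fermt3, -2.27 with the mean of its probe sets) and none of those past 2-fold changed sign. Much of this count was fixed in advance and does not measure stability. A change of filter leaves the difference of a gene as it was, and so does a change of probe sets for a gene with 1 probe set. Cases where a gene gave no value were not counted. No paired analysis was possible because each condition has 1 sample, and for the same reason no sample could be left out. The signals of 20 of the 39 genes lay below both array medians and cannot show a difference at this precision. Cd37, Fermt3, Pf4, Rac2 and Plek had 1 signal below its array median, so the size of their differences is uncertain.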
